A study of Hordeum vulgare with 30 samples.

Results

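Transport genes that lie among candidate genes for waterlogging tolerance were followed in barley roots after 24 h of waterlogging. Quantitative trait loci (QTL) are stretches of a chromosome that carry natural variation in a trait. The study lists 28 genes of the Morex V3 genome that came from QTL mapped earlier for waterlogging tolerance and for root traits such as adventitious roots and aerenchyma, the air channels of the root. The earlier list used identifiers of an older genome release. The study assigned each to the V3 transcript of highest sequence identity, so that a member may be a close relative of the mapped gene. Of the 28 genes, 8 have a description that names a transport function, and 6 of the 8 are described here, chosen by name. They are an aquaporin (HORVU.MOREX.r3.2HG0188290), the potassium transporters HORVU.MOREX.r3.4HG0407500 and HORVU.MOREX.r3.7HG0736590, a gene described as transporter (HORVU.MOREX.r3.2HG0177830), a transporter-related family protein (HORVU.MOREX.r3.5HG0508840) and a mitochondrial pyruvate carrier (HORVU.MOREX.r3.2HG0177820). The prefix HORVU.MOREX.r3. is left out below. The first digit and letter of an identifier give the chromosome, so that the members lie on 2H, 4H, 5H and 7H. They are 6 of the 35826 genes in the count table, and all 6 passed the filter on low counts that left 20576 genes for testing. The remaining pair of transport candidates, a nitrate transporter 1.2 (2HG0177980) and a further transporter-related family protein (5HG0508860), also hold counts and are given as neighbors of the members.

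Roots of 5 varieties were sequenced: Golden Promise (spring, two-row), Infinity and Regina (winter, two-row), and Passport and Pilastro (winter, six-row). Seedlings were 10 days old, and each variety was either waterlogged for 24 h, with water standing above the soil, or kept under normal watering as control. Every variety and treatment had 3 libraries, each from the pooled roots of 3 plants, and the experiment was run independently 3 times. The varieties are cultivars, for which the sources used here name no introduced modification. Sowing type and row number go with the variety, so that these cannot be told apart from other differences between varieties.

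Aquaporins are channel proteins that let water, and in some cases other small neutral molecules, cross a membrane, and they set much of the water permeability of root cells. Potassium transporters bring the main cation of the plant cell into roots, and loss of potassium from roots is a well known consequence of oxygen shortage. The mitochondrial pyruvate carrier moves pyruvate from the cytosol into mitochondria. When oxygen runs out, pyruvate is instead fermented to ethanol through pyruvate decarboxylase and alcohol dehydrogenase. Genes of that route, and the hemoglobin gene HvHB, are standard markers of hypoxia in barley.

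Total counts per library lay between 9601984 and 12349136, with a median of 11982157.5. Levels are given as CPM, the counts of a gene relative to the library total scaled by TMM, a normalization that allows for differences in composition between libraries. As gene lengths were not at hand, levels are compared between libraries and not between genes. HvADH1 (4HG0345760), HvPDC1 (4HG0384560) and HvHB (4HG0394960) were called higher after waterlogging in all 5 varieties, with mean log2 fold changes over the varieties of 3.42 ± 0.25 (SE), 2.82 ± 0.20 and 4.96 ± 0.40. The value for HvHB became 6.03 without Golden Promise control replicate 2, the 1 control library of that variety in which it had counts, so that this fold change rests on a group near 0. Of the leaf markers, the Rubisco small chain (1HG0037500) lay between 0 and 3.81 CPM, and protochlorophyllide reductase (1HG0047060) had at most 4 counts in any library. No root marker was at hand, so the label was checked from the side of the leaf only. Within a group, counts of library pairs differed by far more than counting allows, with a chi-square of 13.3 to 54.8 per degree of freedom.

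Each variety was first compared with its own control by the quasi-likelihood test of edgeR, and an adjusted p under 0.05 (Benjamini-Hochberg) is termed a call. None of the 6 members was called in any variety (0 of 30 tests), and DESeq2 also called 0. Of all tested genes, edgeR called 0.442% for Golden Promise and 1.08% for Passport, and 3.92%, 3.82% and 4.04% for Infinity, Pilastro and Regina. Unadjusted, 2 of the 30 member tests had p under 0.05, against 14.5% of all such tests. These were the aquaporin in Golden Promise (unadjusted p = 0.0101, edgeR) and 7HG0736590 in Regina (unadjusted p = 0.0382, edgeR). The response averaged over the 5 varieties was tested in the same fit. Here 1 of 6 members was called, the aquaporin, where 27.1% of all genes were called and 14.4% were called lower. The median of the mean responses was -0.18 on the log2 scale over the members and -0.02 over all genes tested.

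**Figure D1:**
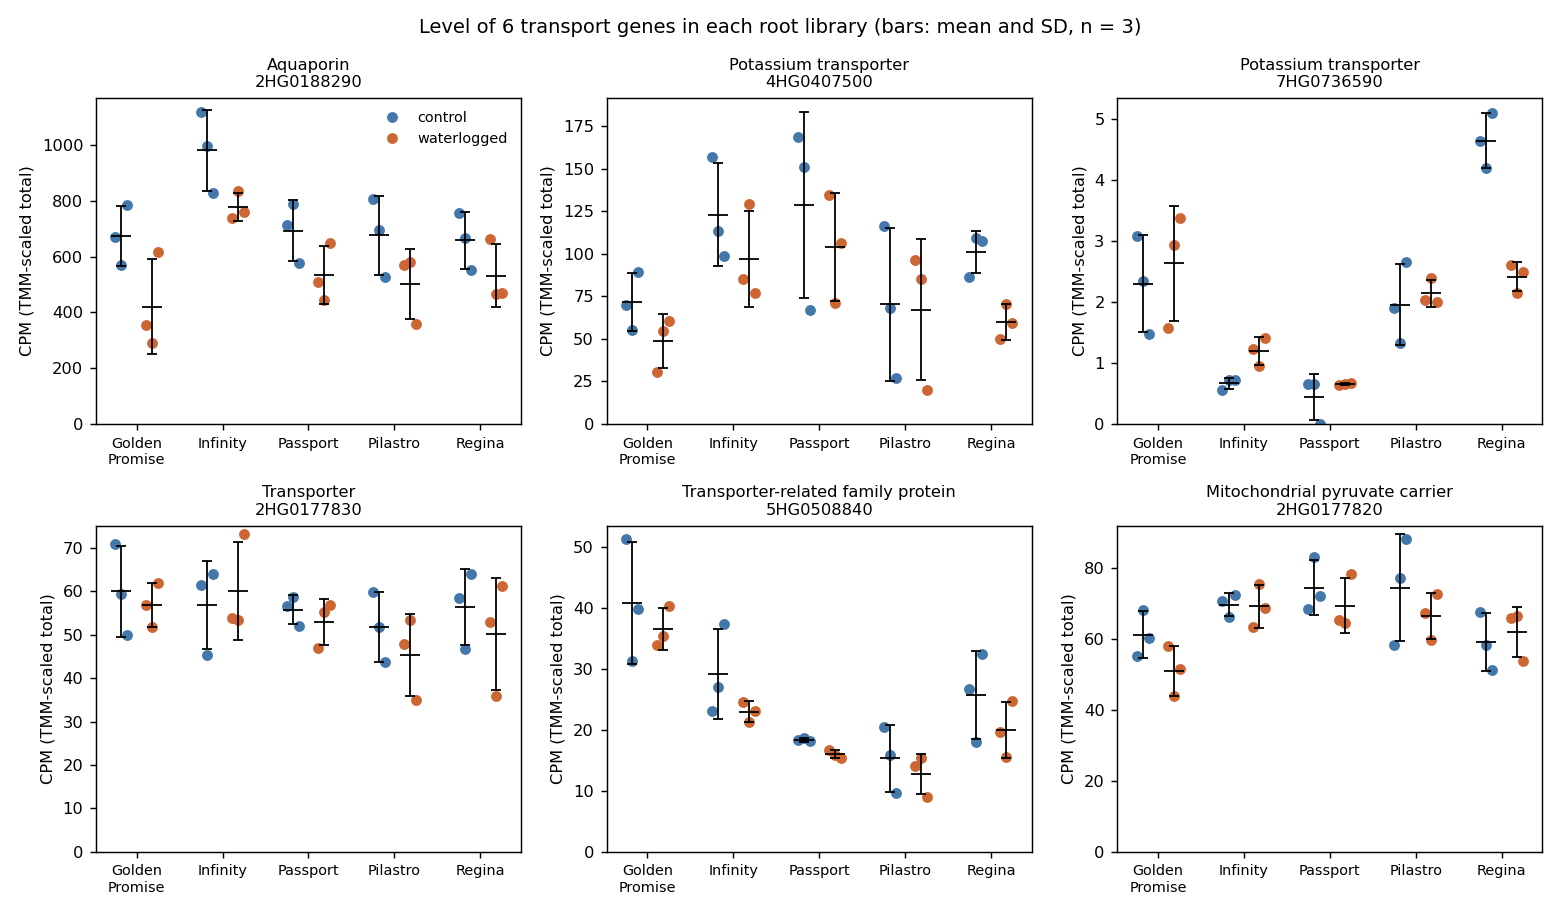
Level of each of the 6 members in the 30 libraries, in CPM of the TMM-scaled total on a linear axis that starts at 0, by variety, with control libraries in blue and waterlogged libraries in orange. Black bars are the mean and SD of 3 libraries. The waterlogged mean of the aquaporin lies below the control mean in 5 of 5 varieties, and Regina controls stand highest for the potassium transporter 7HG0736590, at 4.19 to 5.09 CPM.

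The aquaporin 2HG0188290 was lower in waterlogged than in control roots over the 5 varieties. In Golden Promise, the controls had 671, 569 and 784 CPM and the waterlogged libraries 356, 292 and 615. In Infinity, the controls had 1117, 995 and 829 CPM and the waterlogged libraries 739.7, 835 and 761. In both varieties 1 waterlogged library reached into the range of the controls, so that the groups overlapped. In Passport, the controls had 714, 789.9 and 576 CPM and the waterlogged libraries 510.5, 445 and 647. In Pilastro, the controls had 806, 697 and 526 CPM and the waterlogged libraries 569, 579.8 and 357. In Regina, the controls had 757, 667 and 553 CPM and the waterlogged libraries 662, 464 and 471. Thus no variety separated completely, but the waterlogged mean was the lower one in 5 of 5 varieties, a pattern shown by 20.8% of all tested genes.

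On the log2 scale, the change of the aquaporin ranged from -0.31 ± 0.24 (SE) in Regina to -0.68 ± 0.24 in Golden Promise, with adjusted p of 0.325 to 0.637 (edgeR). The mean response was -0.43 ± 0.11, which is a level in waterlogged roots of 0.745 times that of the controls (adjusted p = 0.00536, edgeR). An exact two-sided permutation test of the mean difference, with libraries exchanged within each variety (3200000 arrangements), gave p = 0.000348. The aquaporin stayed called when any of the 30 libraries was left out, with an adjusted p between 4.96e-04 and 0.0140 (edgeR). In roots sequenced in bulk, fewer cells of a type that makes the transcript and less of it per cell cannot be told apart. The interaction test, which asks whether the response differs between varieties, gave an unadjusted p of 0.815 (edgeR).

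The order of the varieties for the aquaporin was the same at the top in both treatments. Infinity had the highest mean, with 980.3 ± 144 CPM (SD, n = 3) in controls and 778 ± 50.04 in waterlogged roots. Control means of the other varieties lay between 659 ± 102 CPM in Regina and 693 ± 109 in Passport, and waterlogged means between 421 ± 171 in Golden Promise and 534 ± 103 in Passport. The test across all control varieties was not passed (adjusted p = 0.218, edgeR), and 0 of 10 pairs of varieties were called among controls, where 9.66% of all tests over genes and pairs were. Among waterlogged libraries, 1 of 10 pairs was called, against 8.51% of all such tests: Infinity was above Golden Promise by 0.89 ± 0.24 on the log2 scale (adjusted p = 0.0146, edgeR). The test across all waterlogged varieties gave an adjusted p of 0.0660 (edgeR) and 0.0188 (DESeq2). With edgeR it fell to 0.00640 without Golden Promise waterlogged replicate 3, the highest library of that group, and to 0.0487 without Pilastro control replicate 3.

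**Figure D2:**
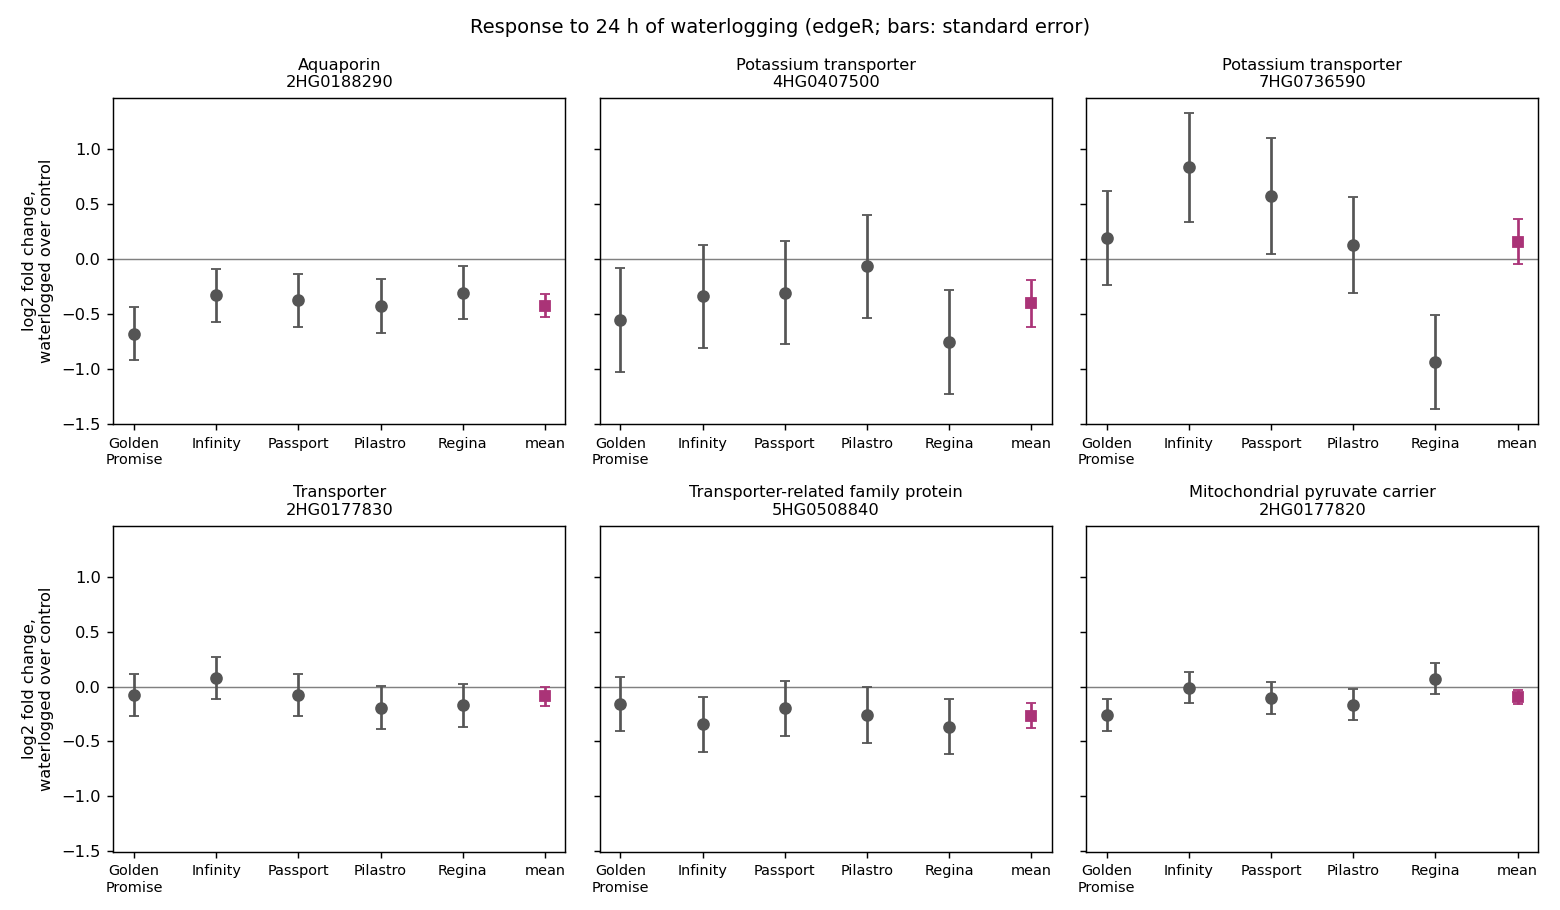
Log2 fold change of waterlogged over control roots for each member, by variety (grey circles) and as the mean over the 5 varieties (purple squares), with standard errors from edgeR. The aquaporin lies below 0 in every variety, and 7HG0736590 ranges from -0.94 in Regina to 0.83 in Infinity.

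The potassium transporter 4HG0407500 varied strongly between libraries of the same group. In Golden Promise, the controls had 70.2, 55.5 and 89.1 CPM and the waterlogged libraries 30.8, 54.9 and 60.5. In Infinity, the controls had 157, 114 and 98.6 CPM and the waterlogged libraries 85.1, 129 and 76.7. In Passport, the controls had 169, 151 and 66.7 CPM and the waterlogged libraries 134.6, 71.0 and 106. In these 3 varieties, the groups overlapped, and replicate 3 of the Passport controls lay below every waterlogged library of Passport. In Pilastro, the controls had 117, 68.0 and 26.8 CPM and the waterlogged libraries 96.7, 85.2 and 19.8. In Regina, the controls had 86.6, 109 and 107 CPM and the waterlogged libraries 49.8, 70.6 and 59.2. Regina was the variety in which every waterlogged library lay below every control, as did 8.09% of all genes there. In Pilastro, replicate 3 was the lowest library of both treatments.

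The waterlogged mean of 4HG0407500 was the lower one in 5 of 5 varieties, from -0.07 ± 0.47 (SE) on the log2 scale in Pilastro to -0.76 ± 0.47 in Regina. A lower mean in every variety was shown by 20.8% of all tested genes. The mean response was -0.41 ± 0.21, nearly the size seen for the aquaporin, but its error was larger and the gene was not called (adjusted p = 0.161, edgeR). When control and waterlogged libraries of the same number were blocked together in every variety, it was called (adjusted p = 0.0300, edgeR), and the waterlogged library was the lower one in 12 of 15 same-number pairs. Whether a number marks the same run in both treatments is not given in the sources used here. The exact permutation test without pairing gave p = 0.0769, and flipping the signs of the 15 same-number differences gave an exact p of 0.0112. The unpaired exact test gave p = 0.0298 without Passport control replicate 3 and p = 0.0172 without Pilastro control replicate 3. Leaving out 1 Pilastro library also turned the value in that variety to above 0, to 0.47 without control replicate 1 and to 0.36 without waterlogged replicate 3. Between varieties, control means ran from 70.5 ± 44.9 CPM (SD, n = 3) in Pilastro to 129 ± 54.6 in Passport, and 0 of 10 pairs were called in either treatment. Of all such tests, 9.66% were called in controls and 8.51% in waterlogged roots.

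The second potassium transporter, 7HG0736590, was held at few counts, and its counts are therefore given as such. Golden Promise controls had 38, 29 and 18 counts and the waterlogged libraries 20, 37 and 42. Infinity controls had 6, 7 and 8 counts and the waterlogged libraries 13, 10 and 15. Passport controls had 8, 8 and 0 counts and the waterlogged libraries had 8 each. The waterlogged libraries of Infinity thus all lay above their controls, as did 10.2% of all genes in that variety, while those of Golden Promise and Passport overlapped. Pilastro controls had 23, 16 and 32 counts and the waterlogged libraries 24, 29 and 24. Regina controls had 50, 44 and 57 counts and the waterlogged libraries 27, 22 and 26. In Regina, every waterlogged library lay below every control, as for 8.09% of all genes in that variety.

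Changes of 7HG0736590 therefore ran in both directions, from 0.83 ± 0.50 (SE) on the log2 scale in Infinity to -0.94 ± 0.43 in Regina (adjusted p = 0.413 and 0.287, edgeR). The mean response was 0.16 ± 0.21, with an adjusted p of 0.619 (edgeR). The interaction test gave an unadjusted p of 0.0967 and did not pass after adjustment (adjusted p = 1, edgeR). That test called 0 genes of the table in edgeR (0.00%) and 22 genes in DESeq2, none of them a member. In edgeR, 662 genes had an unadjusted p under 0.05, fewer than that threshold gives when no gene has an interaction. Not passing this test does not show that the responses were equal.

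Varieties differed in the level of 7HG0736590 in both treatments. The study, on these same samples, had already named this gene among the candidates that differ between varieties. Among controls, Regina had 4.64 ± 0.45 CPM (SD, n = 3), Golden Promise 2.30 ± 0.80, Pilastro 1.957 ± 0.66, Infinity 0.667 ± 0.094 and Passport 0.437 ± 0.378. The difference across the 5 varieties was called (adjusted p = 4.51e-05, edgeR), as it was for 26.7% of all genes. Of 10 pairs, 6 were called, against 9.66% of all such tests. Regina, Golden Promise and Pilastro each stood above Infinity and above Passport. The largest of these differences was 3.38 ± 0.49 on the log2 scale, between Regina and Passport (adjusted p = 5.86e-05, edgeR), and rests on 16 counts in the Passport controls together. Neighbors in the order did not pass the test, except for Pilastro over Infinity. Regina differed from Golden Promise by 1.01 (unadjusted 95% interval 0.17 to 1.84, adjusted p = 0.165, edgeR). Pilastro differed from Golden Promise by -0.23 (-1.08 to 0.62), and Passport from Infinity by -0.60 (-1.65 to 0.46).

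After waterlogging, the varieties lay closer together. Golden Promise had 2.63 ± 0.94 CPM (SD, n = 3), Regina 2.41 ± 0.24, Pilastro 2.14 ± 0.22, Infinity 1.196 ± 0.23 and Passport 0.656 ± 0.011. The varieties still differed (adjusted p = 0.0140, edgeR), where 23.3% of all genes did. Of 10 pairs, 3 were called, against 8.51% of all such tests. They were those of Golden Promise, Regina and Pilastro over Passport, with log2 differences of 1.99 ± 0.47, 1.86 ± 0.48 and 1.69 ± 0.47. Both calls across varieties held with any 1 library left out, with an adjusted p of at most 2.56e-04 in controls and 0.0459 in waterlogged roots (edgeR). Whether the spread between varieties differs between treatments is the question of the interaction test above, which was not passed.

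**Figure D3:**
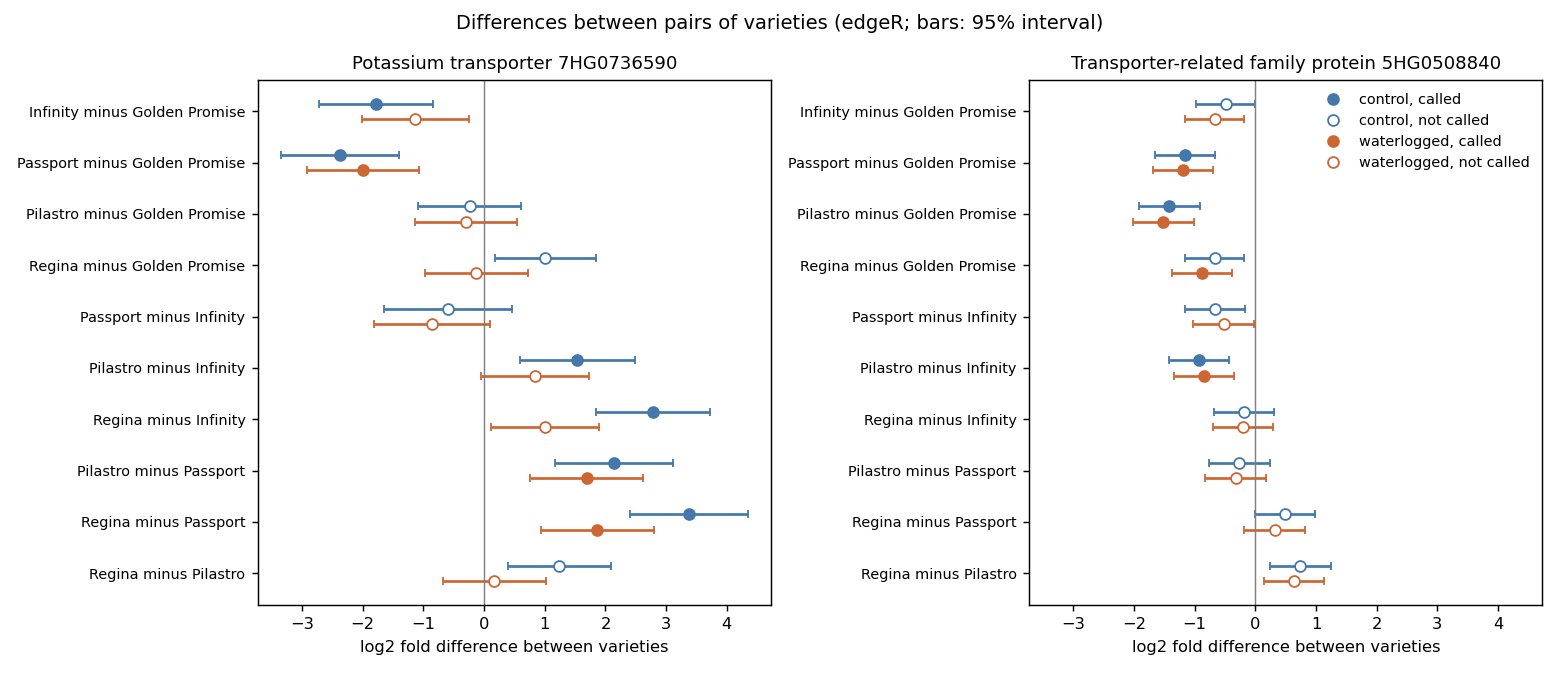
Log2 difference between each pair of varieties in control (blue) and waterlogged (orange) roots for the potassium transporter 7HG0736590 and the transporter-related gene 5HG0508840. Bars are unadjusted 95% intervals derived from the edgeR test. Filled symbols are pairs with an adjusted p under 0.05, which number 6 and 3 for 7HG0736590 and 3 and 4 for 5HG0508840. Over all genes, 9.66% of such tests were called in controls and 8.51% in waterlogged roots.

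The transporter-related gene 5HG0508840 also differed between varieties, in another order. Golden Promise controls had 51.5, 31.4 and 39.8 CPM and the waterlogged libraries 33.9, 35.4 and 40.4. Infinity controls had 23.1, 27.1 and 37.4 CPM and the waterlogged libraries 24.6, 21.2 and 23.19. Passport controls had 18.3, 18.7 and 18.1 CPM and the waterlogged libraries 16.8, 15.9 and 15.4. Passport was the variety in which the treatments did not overlap, with waterlogged libraries below all controls, as for 10.6% of all genes there. Pilastro controls had 20.6, 15.9 and 9.60 CPM and the waterlogged libraries 14.1, 15.3 and 9.07. Regina controls had 26.7, 18.004 and 32.4 CPM and the waterlogged libraries 19.7, 15.5 and 24.8. Replicate 3 was again the lowest Pilastro library in both treatments.

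Among controls, the mean level of 5HG0508840 was 40.9 ± 10.1 CPM (SD, n = 3) in Golden Promise, 29.2 ± 7.36 in Infinity, 25.7 ± 7.25 in Regina, 18.4 ± 0.32 in Passport and 15.4 in Pilastro, where the libraries ran from 9.60 to 20.6. The same order held after waterlogging, with 36.6 ± 3.41, 23.02 ± 1.71, 20.0 ± 4.64, 16.0 ± 0.69 and 12.8 ± 3.31 CPM. The difference across varieties was called in controls (adjusted p = 0.00104, edgeR) and in waterlogged roots (adjusted p = 6.72e-04, edgeR), and with any 1 library left out the adjusted p was at most 0.00850 and 0.00556. These tests called 26.7% and 23.3% of all genes. Of 10 pairs, 3 were called in controls and 4 in waterlogged roots, against 9.66% and 8.51% of all such tests. In both treatments, Golden Promise stood above Passport and Pilastro and Infinity above Pilastro. After waterlogging, Golden Promise also stood above Regina. The widest difference was that of Pilastro from Golden Promise, -1.41 ± 0.25 on the log2 scale in controls and -1.51 ± 0.26 in waterlogged roots (adjusted p = 4.44e-04 and 2.71e-04, edgeR). None of the neighbors in the order differed beyond the threshold.

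In response to waterlogging, 5HG0508840 had a lower mean in 5 of 5 varieties, from -0.16 ± 0.25 (SE) on the log2 scale in Golden Promise to -0.36 ± 0.25 in Regina. As above, 20.8% of all tested genes had a lower mean in every variety. The mean response was -0.26 ± 0.11 and was not called (adjusted p = 0.0847, edgeR). It was called with same-number libraries blocked together in every variety (adjusted p = 0.0213, edgeR), where 12 of 15 same-number pairs were lower after waterlogging. Without the block, it was called when Pilastro control replicate 3 was left out (adjusted p = 0.0432) or Regina control replicate 2 was (adjusted p = 0.0446). The exact permutation test gave p = 0.0359, and p exceeded 0.05 when any of 11 libraries was left out, reaching 0.0907 without Pilastro control replicate 1. The neighboring candidate 5HG0508860, of the same description, had 141 to 492 CPM and a mean response of -0.28 ± 0.14, which was not called (adjusted p = 0.143, edgeR), but was without Golden Promise control replicate 2 (adjusted p = 0.0258). Its controls did not show a called difference between varieties (adjusted p = 0.549, edgeR).

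The gene described as transporter, 2HG0177830, kept a narrow range, from 34.9 to 73.2 CPM over all 30 libraries. Control means lay between 51.8 ± 8.00 CPM (SD, n = 3) in Pilastro and 60.1 ± 10.5 in Golden Promise, and waterlogged means between 45.4 ± 9.49 in Pilastro and 60.2 ± 11.3 in Infinity. The treatments overlapped in every variety. Its mean response was -0.09 ± 0.09 (SE) on the log2 scale, with a 95% interval of -0.26 to 0.08, and it was not called (adjusted p = 0.497, edgeR). No pair of varieties was called in either treatment, where 9.66% of all such tests were in controls and 8.51% in waterlogged roots. The nitrate transporter 1.2 (2HG0177980), whose identifier lies close by, had 0 to 16 counts per library and no count in 7 libraries, with a mean response of -0.68 ± 0.55 (adjusted p = 0.389, edgeR). At these counts single libraries set the value, which was -1.37 without Pilastro waterlogged replicate 1 and -0.42 without Golden Promise control replicate 1.

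The mitochondrial pyruvate carrier 2HG0177820 also varied little, between 43.9 and 88.2 CPM. Control means ran from 59.03 ± 8.21 CPM (SD, n = 3) in Regina to 74.5 ± 15.2 in Pilastro. Waterlogged means ran from 51.1 ± 7.03 in Golden Promise to 69.3 ± 7.74 in Passport. The treatments overlapped in every variety, and the mean response was -0.09 ± 0.06 (SE) on the log2 scale (95% interval -0.22 to 0.03, adjusted p = 0.297, edgeR). In the same libraries, HvPDC1, whose enzyme uses pyruvate in fermentation, rose by 2.82 ± 0.20 on average. After waterlogging, Infinity stood above Golden Promise by 0.44 ± 0.14 (adjusted p = 0.0395, edgeR), the 1 called pair of 10, where 8.51% of all such tests were called. The test across controls gave an adjusted p of 0.172 (edgeR), and of 0.0297 without Pilastro control replicate 1.

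The members did not follow a single pattern over the 30 libraries. These correlations of log2 CPM are descriptive, since the libraries share varieties and treatments and may share runs. The aquaporin and the potassium transporter 4HG0407500 moved most alike, with r = 0.67. The genes 2HG0177830 and 5HG0508840 had r = 0.63, while the pyruvate carrier and 5HG0508840 ran opposite to each other, with r = -0.60. The pyruvate carrier and the transporter 2HG0177830, whose identifiers follow each other, had r = -0.24.

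For each member, the gene with the most similar pattern was sought among 3797 tested genes that have a description at hand. These are not a random part of the 20576 genes tested. The descriptions come from the study's tables at hand, which include genes it picked as changed in these samples. For the aquaporin it was a 5'-methylthioadenosine/S-adenosylhomocysteine nucleosidase (3HG0248990, r = 0.80), an enzyme that breaks down by-products of S-adenosylmethionine. For 4HG0407500 it was a 2-oxoglutarate and iron dependent oxygenase (1HG0058310, r = 0.81), and for 2HG0177830 a different gene of that superfamily (7HG0669600, r = 0.84). For 7HG0736590 it was a glutamate-tRNA ligase (1HG0044370, r = 0.81), an enzyme that charges tRNA for translation. For 5HG0508840 it was alpha-L-arabinofuranosidase 1 (4HG0380530, r = 0.87), a cell wall enzyme. For the pyruvate carrier it was the NADH dehydrogenase 1 beta subcomplex subunit 8 (1HG0056010, r = 0.89), a part of mitochondrial respiratory complex I. Tested genes without a description at hand came closer for some members. Their highest r was 0.825 for the aquaporin, 0.899 for 4HG0407500, 0.861 for 7HG0736590 and 0.900 for 5HG0508840.

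Other genes of the same families were drawn from the tables of chromosome 1H and from the part of the study's list of changed genes at hand. The latter were chosen by the study on these samples, so that their direction is not independent evidence. Of 2 aquaporins on 1H, 1 passed the filter: aquaporin-1 (1HG0049580), with 17.4 to 45.4 CPM, had a mean response of -0.34 ± 0.10 (SE) and was called lower (adjusted p = 0.0172, edgeR). In the study's list, aquaporin-1 (4HG0380540) had a mean response of -0.35 ± 0.06 and the aquaporin 6HG0596770 one of -1.10 ± 0.15 (adjusted p = 2.23e-04 and 8.04e-06, edgeR). Control means of 6HG0596770 lay between 1136 ± 449 and 2096 ± 544 CPM (SD, n = 3) and waterlogged means between 554 ± 137 in Pilastro and 1148 in Infinity, where the libraries ran from 836 to 1306. Of the 4 aquaporins described here, the QTL candidate and 1HG0049580 were called lower, where 14.4% of all genes were. The pair from the study's list was called lower as well. The study picked that pair as changed in these samples, so that the share is not set against it. Aquaporins of other chromosomes outside these lists were not examined.

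**Figure D4:**
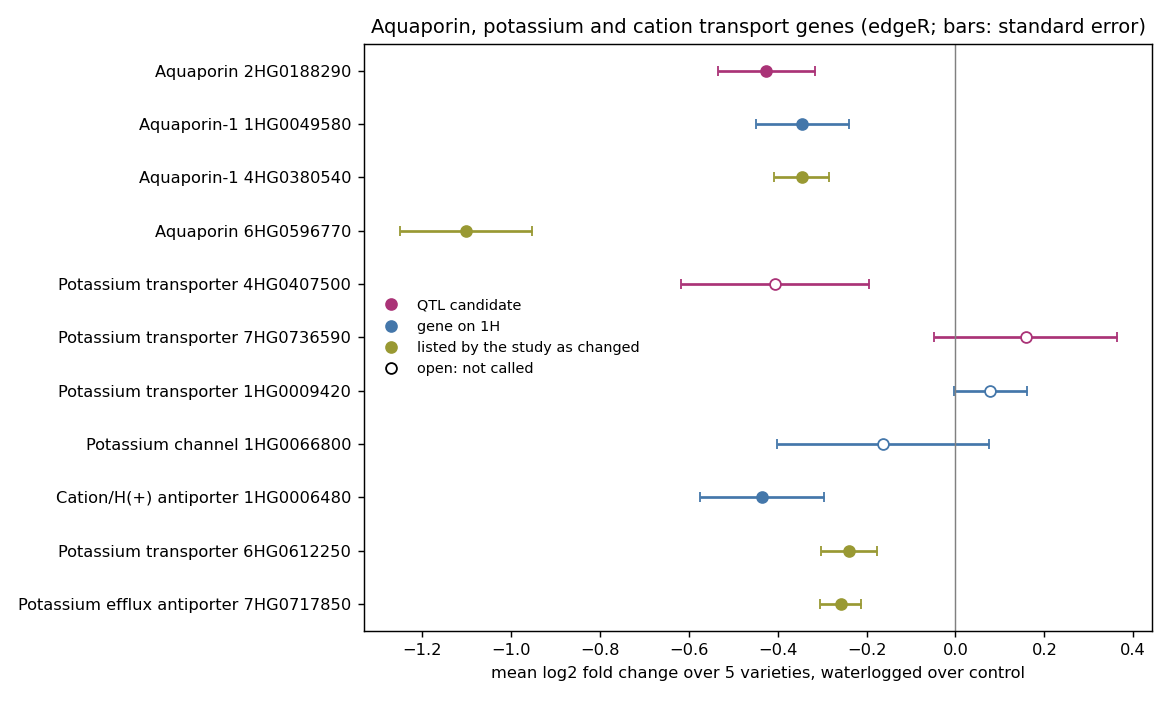
Mean log2 fold change over the 5 varieties, waterlogged over control roots, for aquaporins and for potassium and cation transport genes, with standard errors from edgeR. Filled symbols have an adjusted p under 0.05. The 4 aquaporins, which include a pair that the study picked as changed in these samples, lie between -1.10 and -0.34. The potassium transporter 7HG0736590 lies highest, at 0.16.

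Potassium and cation transport genes were more mixed. Of 7 on 1H, 3 passed the filter and 1 was called: the cation/H+ antiporter 1HG0006480, with 7 to 47 counts per library, had a mean response of -0.44 ± 0.14 (SE; adjusted p = 0.0238, edgeR). The potassium transporter 1HG0009420 had 0.08 ± 0.08 and the potassium channel 1HG0066800 had -0.16 ± 0.24, and neither was called. All 3 were called between control varieties, where 26.7% of all genes were, with adjusted p of 0.00896 for the antiporter, 0.00108 for the transporter and 0.0127 for the channel (edgeR). Of the potassium transporters among the members, 7HG0736590 was called in that test and 4HG0407500 was not (adjusted p = 0.362, edgeR). The call of the channel was lost without Golden Promise control replicate 3 (adjusted p = 0.0503). In the study's list, the potassium transporter 6HG0612250 had a mean response of -0.24 ± 0.06 and the potassium efflux antiporter 7HG0717850 one of -0.26 ± 0.05 (adjusted p = 0.00671 and 2.40e-04, edgeR). The 5 genes of 1H in these groups that did not pass the filter, 1 of them the aquaporin 1HG0046190 and 2 of them the potassium transporters 1HG0067710 and 1HG0068350, had at most 11 counts in any library.

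The other pyruvate carriers were patchy in a way the member was not. The carrier 1HG0016030 had 47 to 165 counts in 10 of 15 control libraries, 43 to 57 counts in 3 of 15 waterlogged libraries, and no count in the rest. Its fitted mean response was called (adjusted p = 0.00880, edgeR), but not without Pilastro control replicate 1, the 1 Pilastro library with a count (adjusted p = 1). The carrier 2HG0136460, from the study's list, had 200 to 284 counts in 3 of 15 control libraries and none in the waterlogged ones, and its mean response was not called by edgeR (adjusted p = 1). How reads were shared between carriers of similar sequence is not given in the sources used here, and its part in these zeros was not tested.

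Over all 70 transport genes of 1H, these families included, 58 were tested and 17 were called in the mean response, 5 of them higher and 12 lower, with a median of -0.09 on the log2 scale. This stands against 27.1% of all genes called, so that the share among the transport genes was near that of the whole table. The smallest adjusted p belonged to nitrate transporter 1.1 (1HG0005090), called lower (adjusted p = 1.75e-04, edgeR) at 0 to 38 counts per library. No fold change is given for it, since all 3 waterlogged Regina libraries had no count. Next were a mitochondrial carrier protein (1HG0061470) at -0.28, an S-type anion channel (1HG0032200) at -0.76, a peptide transporter (1HG0053890) at 0.44 and a sodium/hydrogen exchanger (1HG0021240) at 0.28. Between control varieties, 8 of the 58 were called, and between waterlogged varieties 9, both lower shares than the 26.7% and 23.3% of all genes. Of the 28 QTL candidates, 21 were tested, of which 4 were called in the mean response, a lower share than the 27.1% of all genes, and 6 between control varieties, close to the 26.7% of all genes.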

How the data were processed

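RNA from barley roots was sequenced as single-end reads in 30 libraries. The authors aligned the reads to Morex V3 with bowtie2 2.4.5, used samtools 1.15.1, and obtained counts per gene with StringTie 2.1.7. These deposited counts are whole numbers, not normalized. Trimming, strand and the handling of reads with several matches are not given in the sources used here, so near-identical family members can share reads. Libraries were grouped by variety and treatment from the titles, and 0 columns of values were left unused. None of 58438 RefSeq entries matched an identifier (0 matches), so descriptions come from the study's tables, and no coordinates, lengths or sequences are given.

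Counts were filtered with filterByExpr, scaled by TMM and tested with the quasi-likelihood test of edgeR 4.0.16 in R 4.3.3, with 1 term per group, all 30 libraries and Benjamini-Hochberg adjustment over 20576 genes. The mean response averages the 5 varieties, and tests between varieties and of the interaction had 4 degrees of freedom. SE were derived from the F statistic. Log2 CPM used a prior count of 2. Alternatives were DESeq2 1.42.0, its size factors, no filter, at least 10 counts in 10 libraries, each variety or treatment alone, a replicate block and leaving out each library. The mean response and the test between control varieties were tried on simulated counts with known changes. Simulated libraries held no runs or pairing, the other tests were not tallied, and no outcome is given here. Members, lists and tests were chosen with earlier results of these data known. Named are all members, the gene most correlated with each among those with a description, all aquaporins, potassium transporters and pyruvate carriers of the lists, hypoxia markers, and of longer lists at most 5 called genes. The candidates 2HG0177980 and 5HG0508860 were added after their values were seen.

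Same-number control and waterlogged libraries deviated together (all correlations over 0.1, 20576 genes) in Passport (0.174, 0.268 and 0.146) and Regina (0.108, 0.164 and 0.304). Number was therefore read as a pairing there, a reading that comes from these correlations. The sample names carry the same numbers in both treatments of a variety, but do not say that a number marks a run. The other varieties were mixed, with -0.0415, 0.229 and 0.234 in Golden Promise and -0.0861, 0.185 and 0.0881 in Infinity. Pilastro had 0.193, -0.0299 and 0.45, the last being the highest value of any variety. Signs of pairing were thus not confined to Passport and Regina.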

Additional observations from a re-analysis of the deposited data

Results flagged for a closer look

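The potassium transporter 7HG0736590 moved in opposite directions in 2 varieties. All waterlogged libraries lay above the controls in Infinity (0.83 on the log2 scale) and below them in Regina (-0.94), as they did for 10.2% and 8.09% of all genes in those varieties. The test of the difference over all 5 varieties, the interaction in edgeR, gave an unadjusted p of 0.0967 and an adjusted p of 1, and a test of these 2 varieties alone was not run. Counts were 6 to 15 in Infinity and 22 to 57 in Regina.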

How the results depend on the processing

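The aquaporin was called in the mean response, and 7HG0736590 and 5HG0508840 between varieties, under every setting tried. For the tests between varieties, 1 setting blocked libraries of the same title number across varieties. Since the sample names number Passport and Pilastro differently, that block may join libraries of different runs. The number of members called in the mean response was 1, and 1 to 2 with a library left out. It was 3 with the replicate block in all varieties, which added 4HG0407500 (adjusted p = 0.0300, edgeR) and 5HG0508840 (adjusted p = 0.0213, edgeR), and 1 with the block in Passport and Regina alone, an alternative added after the correlations were seen, which changed no call of a member. In the other 3 varieties at least 1 same-number correlation was under 0.1. The share of all genes called under the block in all varieties is not given here. The count of 3 is therefore not read as a trait of the members. The experiment was run 3 times, but whether a number marks the run is not given in the sources used here. Flipping the signs of 15 same-number differences gave exact permutation p of 1.83e-04 for the aquaporin (14 of 15 lower), 0.0112 for 4HG0407500 and 0.00281 for 5HG0508840 (12 of 15 lower each). The exact permutation test put 2 members under 0.05, 1 with DESeq2's size factors and 1 to 3 with a library left out. The exact tests and the counts of same-number pairs were made for the members only. No share of all genes stands beside them, so that they are not read as a trait of the members. For 5HG0508840 the 11 libraries were Golden Promise control 1 and waterlogged 1, Infinity control 3 and waterlogged 2, Pilastro control 1 and 2 and waterlogged 3, and Regina control 1 and 3 and waterlogged 1 and 2. Over the members, pairs of control varieties called fell from 9 to 5 when controls were fitted alone. The share of all such tests called in that fit is not given here. The drop is therefore not read as a trait of the members. The cause of these moves was not tested.

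Of the changes within 1 variety, none called, 10 turned sign. The pyruvate carrier in Infinity, at -0.011, became 0.0198 with DESeq2's size factors and with DESeq2, 0.0009 without a filter, 0.0114 with the strict filter and 0.0274 with Infinity alone. With a library left out, it ran from -0.078 to 0.061, and from -0.0065 to 0.18 in Regina. 4HG0407500 ran from -0.44 to 0.47 in Pilastro. 7HG0736590 ran from -0.034 to 0.48 in Golden Promise and from -0.092 to 0.42 in Pilastro. 2HG0177830 ran from -0.19 to 0.079 in Golden Promise, from -0.086 to 0.17 in Infinity, from -0.11 to 0.0064 in Passport and from -0.34 to 0.024 in Regina. 5HG0508840 ran from -0.32 to 0.062 in Golden Promise. With 3 libraries against 3, an exact permutation test within a variety cannot give p below 0.1.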
